A study of Mus musculus with 7 samples.

Results

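The genes described here encode the proteins that carry, dock and fuse vesicles at membranes. They are the synaptotagmins (Syt), syntaxins (Stx), syntaxin-binding proteins (Stxbp), vesicle-associated membrane proteins (Vamp), synapsins (Syn), the SV2 vesicle proteins (Sv2), the complexins (Cplx) and 5 genes named Snap (Snap23, Snap25, Snap29, Snap47 and Snap91). They were chosen by gene symbol, and 59 of the 32531 symbols in the count files matched. By textbook expression, 26 of them were put in a neuronal class and 21 in a widely expressed class, and 12 were put in neither. Earlier results of these data were known when these choices were made. Counts were high enough for testing in 56. Syt8 and Vamp7 had 0 counts in all 7 libraries and Stx19 stayed below the filter, where 3 counts correspond to between 0.0376 and 0.059 CPM. Vamp7 lies on an unplaced scaffold and on no chromosome in GENCODE M21, and whether reads could be counted for it in these files is not known, so its 0 is no measured level. CPM are counts per gene scaled to a common library size.

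RNA came from the midbrain of adult control mice without treatment, all of the line Stard8-TRAP ES2342. All mice carried the same transgene, the ribosomal protein Rpl10a fused to EGFP and driven by regulatory sequence of Stard8, so only cells in which that sequence is active carry tagged ribosomes. Ribosomes were pulled from the homogenate with antibodies against EGFP, a method called translating ribosome affinity purification (TRAP). The immunopurified RNA (IP) gave 3 libraries, numbered 1, 2 and 4, and the RNA left behind (unbound) gave 4, numbered 1 to 4. The comparison of IP with unbound asks which transcripts were carried by tagged ribosomes more or less than by the rest of the tissue. Counts in genes lay between 52052340 and 70861941 in IP and between 53715780 and 76114634 in unbound. Nothing in the labels says that libraries of a group came from separate animals, so p-values measure the spread between these libraries.

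The submitters call the profiled cells neurons, and the markers in these libraries went against that name. Of 10 neuronal markers outside the families described here, such as Rbfox3 and Tubb3, all 10 were lower in IP, with a summed level of 967 to 1999 CPM in IP and 3635 to 5180 CPM in unbound. Of 7 midbrain dopamine neuron markers, 1 was lower and 6 did not pass, with sums of 208 to 219 CPM in IP and 208 to 266 CPM in unbound. All 8 endothelial markers were higher, with sums of 1756 to 2483 CPM in IP and 39.3 to 64.3 CPM in unbound. All 8 pericyte and smooth muscle markers were higher as well, at 3319 to 4942 CPM in IP and 22.2 to 35 CPM in unbound, as were all 8 microglia and macrophage markers, at 1067 to 1177 CPM in IP and 32.2 to 58.3 CPM in unbound. Astrocyte markers were higher in 4 of 6 and oligodendrocyte markers lower in 6 of 6. Stard8, whose regulatory sequence drives the tag, measured 388, 440 and 227 CPM in IP 1, 2 and 4, against 3.51, 4.35, 4.18 and 4.89 CPM in unbound 1 to 4, a log2 fold change of 6.38 ± 0.31 (standard error, as for all log2 fold changes here). Among the IP libraries IP 4 stood apart, with the highest neuronal sum (1999 CPM, against 967 and 1082 CPM in IP 1 and 2), the lowest endothelial sum (1756 CPM, against 2483 and 2471 CPM) and the lowest Stard8.

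A vesicle fuses when a SNARE protein on the vesicle zips up with SNARE proteins on the target membrane into a tight bundle that draws the membranes together. At the synapse the vesicle SNARE is a synaptobrevin (Vamp1 or Vamp2) and the target SNAREs are a syntaxin and SNAP-25, while complexins and synaptotagmins hold the bundle ready and trigger it when calcium enters the terminal. Every cell runs related sets of SNAREs for traffic among the Golgi, endosomes, lysosomes and plasma membrane, and relatives such as VAMP3, VAMP8, SNAP-23 and syntaxin-2 serve these steps or regulated secretion outside neurons.

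Most neuronal isoforms were lower in IP, and the changes among the widely expressed isoforms were mostly upward. Of the 26 neuronal isoforms tested, 0 rose and 19 fell, with a median log2 fold change of -1.28. Of the 20 widely expressed isoforms tested, 7 rose (Snap23, Snap29, Stx2, Stx5a, Vamp3, Vamp5 and Vamp8), 2 fell (Snap47 and Stx16) and 11 did not pass, with a median of 0.35. Of the 10 tested in neither class, 1 rose and 5 fell. The test was edgeR's quasi-likelihood test with Benjamini-Hochberg adjustment over all 17654 genes tested, at a threshold of 0.05. At an unadjusted p under 0.05 the number of neuronal isoforms that rose was also 0, as it was with DESeq2 and limma voom. Among all genes 39.4% passed, 20.5% as higher and 18.9% as lower, with a median log2 fold change of -0.10. The share of neuronal isoforms that fell, 73.1%, is thus far above the share of all genes that fell, and the share of widely expressed isoforms that rose, 35%, is above the share of all genes that rose. In these libraries, few tagged cells of a type, little RNA per tagged cell and untagged RNA carried over into IP cannot be told apart.

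The neuronal count depended on single IP libraries. It was 9 without IP 1, 9 without IP 2 and 23 without IP 4, and over all members the number that fell was 14, 14 and 30 in the same order, against 26 with every library. Calls over all genes, in either direction, changed in these fits as well. They numbered 6950 of 17654 with every library, 4814 of 18255 without IP 1, 4547 of 18413 without IP 2 and 6534 of 18412 without IP 4. The median of the neuronal isoforms stayed negative, at -1.06, -1.07 and -1.97 without IP 1, 2 and 4. Libraries carried one of 2 index sequences, ACAGTG (IP 1 and 2, unbound 1 and 2) or GTGAAA (IP 4, unbound 3 and 4). Within ACAGTG 18 neuronal isoforms fell with a class median of -1.71, while 3840 of all 17663 genes tested passed in either direction. Within GTGAAA the lone IP library was assumed to vary like the unbound ones. The class median was -0.74 there, and the log2 fold change of Cplx3 was 1.72. IP 4 is the only IP library with its index, so the index and that library cannot be told apart within IP.

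**Figure D1:**
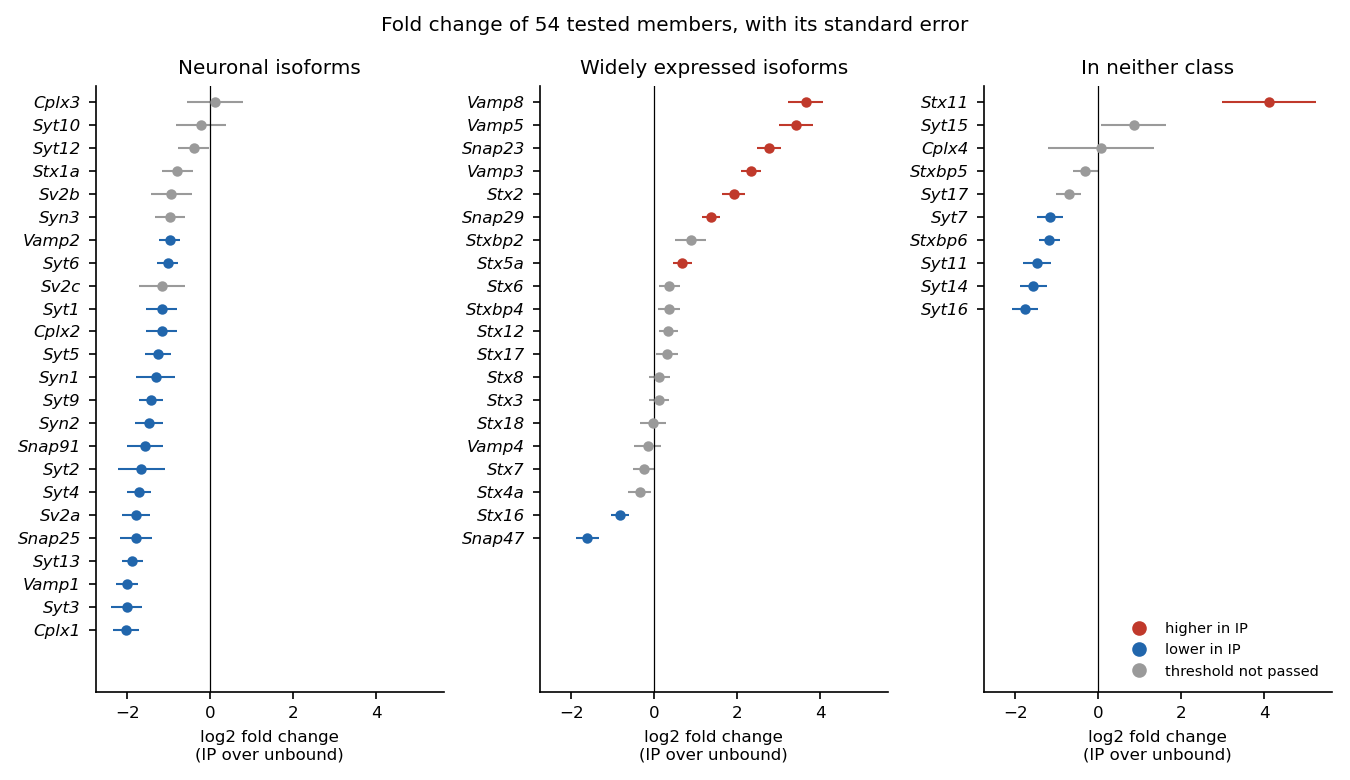
Log2 fold change of IP over unbound for 54 tested genes (points) with its standard error (lines), in 3 panels for the neuronal, widely expressed and other genes; red is higher in IP, blue lower and grey did not pass the threshold. Of the neuronal points 23 of 24 lie left of 0, while the widely expressed points run from -1.61 for Snap47 to 3.65 for Vamp8.

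All 5 genes named Snap passed the test, 4 SNAREs and the adaptor Snap91, where 39.4% of all genes passed, and they did so in opposite directions. Snap25 encodes the neuronal SNARE that supplies a pair of helices to the bundle (chr2:136713453-136782428, plus strand, GRCm38). It had 2483, 2620 and 5463 CPM in IP 1, 2 and 4, against 9555, 10709, 12728 and 15516 CPM in unbound 1 to 4. Every IP library lay below every unbound library, with IP 4 the highest of the 3, and the log2 fold change was -1.78 ± 0.38 (adjusted p = 0.00397). Snap23, its counterpart in most other cells (chr2:120567671-120601255, plus strand), had 161, 179 and 143 CPM in IP 1, 2 and 4, against 30.4, 29.2, 14.6 and 20.3 CPM in unbound 1 to 4. Here every IP library lay above every unbound library, and the log2 fold change was 2.77 ± 0.28 (adjusted p = 3.53e-05). Both held their calls under every alternative tried for them.

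Both proteins do the same job in the bundle, and their messages are close relatives, which bears on how reads are assigned to them. Over 603 aligned coding bases 68.5% were identical, and the longest run of bases shared by their transcripts was 25. The stretch of 60 coding bases where they are most alike is shown here from the longest coding transcript of each gene in GENCODE M21, with the 9 differing bases in capitals. It covers coding bases 144 to 203 of Snap25 and 129 to 188 of Snap23, counted from 1 at the start codon.
Snap25: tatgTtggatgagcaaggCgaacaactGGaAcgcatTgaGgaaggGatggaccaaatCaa
Snap23: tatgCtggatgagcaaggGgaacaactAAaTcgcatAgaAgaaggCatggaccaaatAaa

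Snap29, which acts in endosomal and autophagosomal fusion, rose by 1.37 ± 0.22 on the log2 scale (adjusted p = 0.000664), with 71.8 to 79.6 CPM in IP and 24.3 to 36.0 CPM in unbound. Snap47, a widely expressed relative that lacks the usual membrane anchor, went the other way. It had 65.1, 84.0 and 108 CPM in IP 1, 2 and 4, against 202, 350, 244 and 249 CPM in unbound 1 to 4, without overlap (log2 fold change -1.61 ± 0.28, adjusted p = 0.00125). Of its exon bases 11.6% are shared with Jmjd4 on the opposite strand, and the part of that overlap in its value was not tested. Snap91, which carries the family symbol but encodes the clathrin adaptor AP180 and is no SNARE, fell by 1.56 on the log2 scale (adjusted p = 0.0158, and 0.0666 and 0.0812 without IP 1 and IP 2).

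Among the syntaxins, Stx1a of the neuronal plasma membrane had 8.26, 9.46 and 19.6 CPM in IP 1, 2 and 4, against 21.9, 29.1, 21.6 and 13.4 CPM in unbound 1 to 4. IP 4 lay above unbound 4 and the gene did not pass (log2 fold change -0.79 ± 0.37, adjusted p = 0.116), although it did without IP 4 (-1.27, adjusted p = 0.0215). Within index GTGAAA its log2 fold change was 0.19, and within ACAGTG -1.53.

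Of the 11 widely expressed syntaxins 2 rose (18.2%, against 20.5% of all genes), 1 fell (9.09%, against 18.9%) and 8 did not pass. Stx2, a plasma membrane syntaxin of epithelia and other secretory cells, had 25.2, 18.9 and 23.6 CPM in IP 1, 2 and 4, against 4.44, 5.62, 8.12 and 5.77 CPM in unbound 1 to 4. All IP libraries were higher, with a log2 fold change of 1.92 ± 0.29 (adjusted p = 0.000463). The Golgi syntaxin Stx5a rose by 0.68 ± 0.23 on the log2 scale (adjusted p = 0.039), with 49.3 to 64.4 CPM in IP and 30.0 to 47.3 CPM in unbound. It lost its call in 5 of the 7 fits that left out 1 library, with adjusted p of 0.133 without IP 1, 0.13 without IP 2, 0.059 without unbound 1, 0.113 without unbound 3 and 0.0959 without unbound 4. Within index ACAGTG it did not pass either (adjusted p = 0.202).

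Stx16, a syntaxin of the trans-Golgi network, was the single member of the widely expressed syntaxins that fell. It had 76.8, 76.7 and 80.8 CPM in IP 1, 2 and 4, against 166, 111, 138 and 137 CPM in unbound 1 to 4 (log2 fold change -0.82 ± 0.22, adjusted p = 0.0125, 0.0594 and 0.0658 without IP 1 and IP 2, and 0.117 within index ACAGTG). The groups did not overlap and IP was narrower than unbound. Stx12, a recycling endosome syntaxin, was the most abundant syntaxin per length in IP. In unbound Stx4a was above it, at 65.1 against 57.9 CPM per kilobase of exon. Stx12 had 238, 273 and 190 CPM in IP 1, 2 and 4, against 196, 146, 188 and 208 CPM in unbound 1 to 4, with overlap (0.34 ± 0.23, adjusted p = 0.265). The late endosomal Stx7 and Stx8, the trans-Golgi Stx6, the autophagosomal Stx17, the endoplasmic reticulum syntaxin Stx18 and the plasma membrane syntaxins Stx3 and Stx4a likewise overlapped between groups, with log2 fold changes from -0.34 for Stx4a to 0.37 for Stx6. Stx11, a syntaxin of immune cells in neither class, had 3.84, 2.35 and 2.04 CPM in IP 1, 2 and 4, against 0.0125, 0, 0.361 and 0.265 CPM in unbound 1 to 4. It was far above unbound in every IP library (4.12 ± 1.14, adjusted p = 0.0154, and 0.0577 without IP 1), while unbound 1 and 2 were at or below the level of 3 counts.

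The vesicle SNAREs gave the widest split, with the synaptobrevins lower and 3 of the 4 tested widely expressed relatives more than 4-fold higher. Vamp2, the main synaptobrevin of the forebrain and many other regions (chr11:69088490-69092384, plus strand), had 1043, 739 and 1213 CPM in IP 1, 2 and 4, against 2063, 2004, 1855 and 1932 CPM in unbound 1 to 4. The groups did not overlap (log2 fold change -0.98 ± 0.26, adjusted p = 0.013), but the call was lost without IP 1 (adjusted p = 0.0503), without IP 2 (0.0944) and within either index. Vamp1, the synaptobrevin prominent in brainstem and spinal cord, had 217, 219 and 229 CPM in IP 1, 2 and 4, against 766, 677, 1116 and 978 CPM in unbound 1 to 4. The 3 IP libraries were nearly equal and all far below unbound (-1.99 ± 0.27, adjusted p = 0.000214).

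Vamp3, or cellubrevin, which serves recycling endosomes and constitutive secretion (chr4:151047300-151057963, minus strand), had 418, 436 and 277 CPM in IP 1, 2 and 4, against 65.3, 88.8, 78.9 and 65.8 CPM in unbound 1 to 4. Every IP library was higher, with IP 4 the lowest of them (2.33 ± 0.25, adjusted p = 4.62e-05). The messages of Vamp2 and Vamp3 are the most alike of the pairs compared here, with 76.2% of 311 aligned coding bases identical and a longest shared run of 17 bases. Their most similar 60 coding bases, in the helix that enters the SNARE bundle, are shown with the 6 differing bases in capitals, at coding bases 181 to 240 of Vamp2 and 142 to 201 of Vamp3 (GENCODE M21).
Vamp2: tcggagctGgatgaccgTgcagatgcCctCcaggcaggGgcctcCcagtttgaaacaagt
Vamp3: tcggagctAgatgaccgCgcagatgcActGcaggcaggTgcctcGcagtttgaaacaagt

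Vamp8, or endobrevin, a SNARE of endosomes and of secretory granules outside neurons, had 129, 121 and 69.1 CPM in IP 1, 2 and 4, against 4.21, 14.8, 8.35 and 6.55 CPM in unbound 1 to 4. Its group means differed 12.6-fold, without overlap (3.65 ± 0.41, adjusted p = 7.43e-05). Vamp5, first described in muscle, had 16.2, 14.1 and 14.8 CPM in IP 1, 2 and 4, against 0.702, 2.32, 1.35 and 1.29 CPM in unbound 1 to 4. The IP libraries were again nearly equal and all higher (3.41 ± 0.41, adjusted p = 0.000113). Vamp5 (chr6:72368794-72380468) and Vamp8 (chr6:72385223-72390703) lie side by side on the minus strand and share no exon bases. Vamp4, a SNARE of the trans-Golgi network, had 95.7 to 147 CPM in IP and 95.1 to 237 CPM in unbound and did not pass (-0.16 ± 0.33, adjusted p = 0.736). The vascular and myeloid markers above had log2 fold changes of 3.54 to 8.50, and the part of those cells in the Vamp, Snap23 and Stx2 values was not tested.

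**Figure D2:**
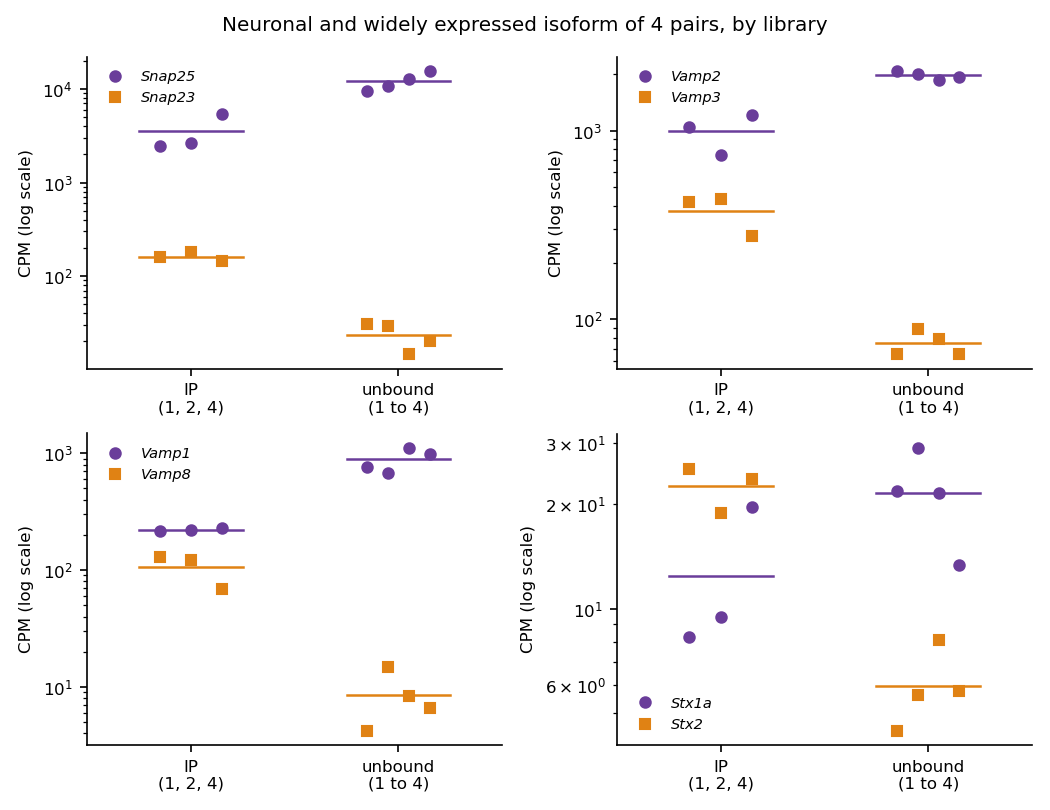
CPM on a log scale in the 3 IP and 4 unbound libraries for the neuronal (circles) and widely expressed (squares) isoform of 4 pairs; each symbol is a library and each line a group mean. In all 4 panels the group means of the isoforms lie closer together in IP than in unbound, and Stx2 is above Stx1a in every IP library but below it in every unbound library.

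Set against each other within a library, the neuronal isoforms lost ground to their widely expressed relatives in the 4 pairs given here. A ratio within a library does not depend on how libraries are scaled. For each Snap23 count there were 15.4, 14.6 and 38.1 Snap25 counts in IP 1, 2 and 4, against 315, 367, 874 and 764 in unbound 1 to 4. The mean log2 ratio was 4.36 ± 0.777 in IP and 9.04 ± 0.741 in unbound (SD, n = 3 and 4), a difference of -4.69. Vamp2 over Vamp3 was 2.49, 1.70 and 4.39 in IP 1, 2 and 4, against 31.6, 22.6, 23.5 and 29.3 in unbound 1 to 4, a difference of -3.32 on the log2 scale. Vamp1 over Vamp8 was 1.68, 1.81 and 3.32 in IP 1, 2 and 4, against 182, 45.7, 134 and 149 in unbound 1 to 4, a difference of -5.71.

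Stx1a over Stx2 was 0.328, 0.502 and 0.830 in IP 1, 2 and 4, against 4.92, 5.18, 2.65 and 2.32 in unbound 1 to 4, so that the more counted gene changed between the groups (difference -2.78). For these 4 pairs no IP ratio reached any unbound ratio, and each gave an exact two-sided permutation p = 0.0286, the smallest this design allows, or 0.0343 adjusted over the 6 pairs tested. The pairs were chosen with earlier results of these data known, so these p-values describe the separation and are no independent test of it.

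Within index ACAGTG the differences in log2 ratio were -4.50 for Snap25 over Snap23, -3.70 for Vamp2 over Vamp3, -5.71 for Vamp1 over Vamp8 and -3.64 for Stx1a over Stx2. Within GTGAAA they were -4.42, -2.58, -5.41 and -1.58 in the same order. Each of these differences kept its sign within both indexes. Coding identity was 65.6% for Vamp1 and Vamp8 and 67.7% for Stx1a and Stx2, with longest shared runs of 15 and 20 bases.

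**Figure D3:**
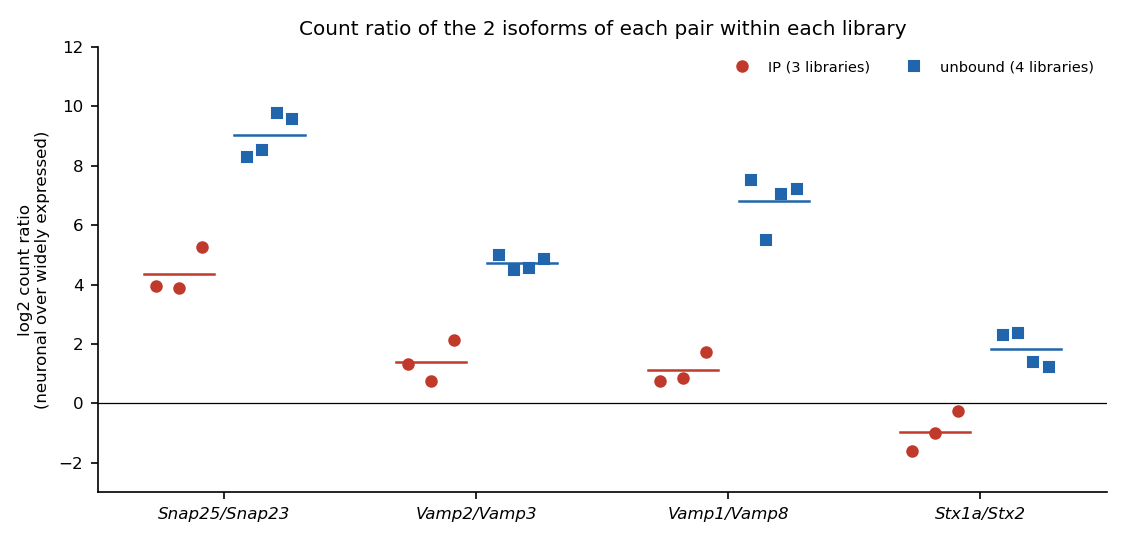
Log2 ratio of the counts of the neuronal over the widely expressed isoform in each IP library (red circles) and unbound library (blue squares), with group means as lines, for 4 pairs. IP lies below unbound without overlap in each of them.

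Further proteins bind syntaxins and regulate their assembly. Stxbp2, or Munc18-2, which serves secretion in mast cells, cytotoxic lymphocytes and epithelia, had 6.40, 6.05 and 9.00 CPM in IP 1, 2 and 4, against 2.23, 4.47, 5.07 and 3.74 CPM in unbound 1 to 4. The groups did not overlap, yet the gene did not pass (0.88 ± 0.38, adjusted p = 0.0871). Stxbp6, or amisyn, which competes for syntaxin, fell by 1.17 on the log2 scale (adjusted p = 0.00415), while the tomosyn gene Stxbp5 (-0.30 ± 0.29, adjusted p = 0.436) and the Stx4 partner Stxbp4 (0.36 ± 0.27, adjusted p = 0.321) did not pass.

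Complexins bind the assembled bundle and clamp or promote fusion. Cplx1 had 184, 227 and 372 CPM in IP 1, 2 and 4, against 907, 955, 1345 and 1041 CPM in unbound 1 to 4. It had the lowest log2 fold change of all members that passed (-2.03 ± 0.31, adjusted p = 0.0006) and no overlap. Cplx2 fell by 1.17 on the log2 scale (adjusted p = 0.0325), with 145 to 415 CPM in IP and 380 to 683 CPM in unbound. Its groups overlapped through IP 4, and leaving out IP 1, IP 2, unbound 1, unbound 3 or unbound 4 gave an adjusted p between 0.0556 and 0.143. The retinal complexins Cplx3 and Cplx4 were low, with Cplx3 at 1.07 to 5.80 CPM in IP and 0.816 to 5.21 CPM in unbound. Cplx4 had 0.118 to 1.46 CPM in IP and 0.019 to 1.19 CPM in unbound, where unbound 3 was below the level of 3 counts. Neither passed, and the sign of both changed between settings.

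The synaptotagmins, the calcium-binding proteins of vesicle and plasma membranes, gave 12 lower of 16 tested (75%, against 18.9% of all genes) and 0 higher (against 20.5%). The number higher was also 0 at an unadjusted p under 0.05 in edgeR, with DESeq2 and with limma voom. Syt1 and Syt2, the sensors of fast transmitter release, were both lower, with log2 fold changes of -1.16 ± 0.38 (adjusted p = 0.0307) and -1.66 ± 0.56 (adjusted p = 0.0376). Syt1 had 147, 115 and 329 CPM in IP 1, 2 and 4, against 450, 314, 434 and 564 CPM in unbound 1 to 4, and Syt2 had 15.2, 14.7 and 58.9 CPM in IP 1, 2 and 4, against 67.8, 41.6, 127 and 138 CPM in unbound 1 to 4. In both, IP 4 alone reached into the unbound range, and neither call outlasted the removal of IP 1 (adjusted p = 0.125 for Syt1 and 0.131 for Syt2), IP 2 (0.137 and 0.141), unbound 3 (0.0575 and 0.0822) or unbound 4 (0.0752 and 0.091), nor that of Syt1 the removal of unbound 1 (0.0547). Syt9, a further fast sensor, had 18.1 to 26.8 CPM in IP and 42.2 to 81.4 CPM in unbound (-1.42 ± 0.28, adjusted p = 0.00257), and was the neuronal member with its lowest IP value in IP 4.

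Among the other synaptotagmins, Syt3 had 13.2, 11.6 and 27.2 CPM in IP 1, 2 and 4, against 49.6, 62.6, 102 and 64.9 CPM in unbound 1 to 4. All IP libraries were lower (-2.01 ± 0.37, adjusted p = 0.00172). Syt11, the most abundant synaptotagmin per length, which does not bind calcium in the usual way, had 102, 121 and 231 CPM in IP 1, 2 and 4, against 370, 313, 513 and 494 CPM in unbound 1 to 4, again without overlap (-1.48 ± 0.34, adjusted p = 0.00573). Syt7, the slow sensor that also acts in lysosome exocytosis, fell by 1.16 (adjusted p = 0.0128, and 0.0642 and 0.0749 without IP 1 and IP 2). Syt4, Syt5, Syt6, Syt13, Syt14 and Syt16 fell without overlap, with log2 fold changes between -1.88 for Syt13 and -1.02 for Syt6, Syt5 and Syt6 with adjusted p between 0.0506 and 0.0541 when IP 1 or IP 2 was left out. Syt10, Syt12, Syt15 and Syt17 did not pass, with log2 fold changes from -0.71 for Syt17 to 0.85 for Syt15. Without unbound 1, where Syt15 had its highest unbound value, it rose by 1.99 (adjusted p = 0.0371), as it did within index GTGAAA (1.26, adjusted p = 0.04), and without unbound 2 Syt17 fell by 0.82 (adjusted p = 0.0475).

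Synapsins tether vesicles in the reserve pool, and SV2 proteins are vesicle membrane glycoproteins. Of these 6 genes Syn1, Syn2 and Sv2a were lower and 3 did not pass, while 18.9% of all genes were lower. Syn1 had 76.5, 105 and 313 CPM in IP 1, 2 and 4, against 477, 244, 405 and 508 CPM in unbound 1 to 4. IP 4 exceeded unbound 2, and the gene passed narrowly (-1.31 ± 0.47, adjusted p = 0.0469), with adjusted p of 0.157, 0.18, 0.0907, 0.0786 and 0.0999 without IP 1, IP 2, unbound 1, unbound 3 and unbound 4. Sv2a, the binding site of the antiepileptic drug levetiracetam, had 70.4, 67.0 and 156 CPM in IP 1, 2 and 4, against 386, 268, 325 and 359 CPM in unbound 1 to 4. It had no overlap (-1.77 ± 0.34, adjusted p = 0.00219).

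Syn2 fell by 1.47 on the log2 scale (adjusted p = 0.00594), with 60.4 to 142 CPM in IP and 200.2 to 284 CPM in unbound. Syn3 (-0.96 ± 0.35, adjusted p = 0.0506), Sv2b (-0.94 ± 0.50, adjusted p = 0.161) and Sv2c (-1.15 ± 0.55, adjusted p = 0.12) did not pass. All 3 did without IP 4 (adjusted p = 0.0383, 0.00223 and 0.0142), and Syn3 and Sv2c also without unbound 2 (0.00854 and 0.0325). All 3 passed with the index as a covariate (0.0335, 0.0305 and 0.0282). Syn3 passed in addition with DESeq2 (0.0262), voom (0.0428), no filter on low counts (0.042), a filter of 5 CPM (0.0394) and within GTGAAA (0.00835), Sv2b with voom (0.046) and within ACAGTG (0.0262), and Sv2c within GTGAAA (0.041). Syn3 and Syn2 each contain, on the opposite strand, a gene for an inhibitor of metalloproteinases. Timp3 shares 1733 bases with Syn3, 14.1% of the exon bases of Syn3, and had 281 ± 42.9 CPM in IP and 57.4 ± 19.0 CPM in unbound (SD, n = 3 and 4). Timp4 shares 90 bases with Syn2 and had 48.3 ± 0.799 CPM in IP and 21.6 ± 8.06 CPM in unbound. Both inhibitors were higher in IP while their synapsin hosts were not, and how shared reads were divided was not tested.

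**Figure D4:**
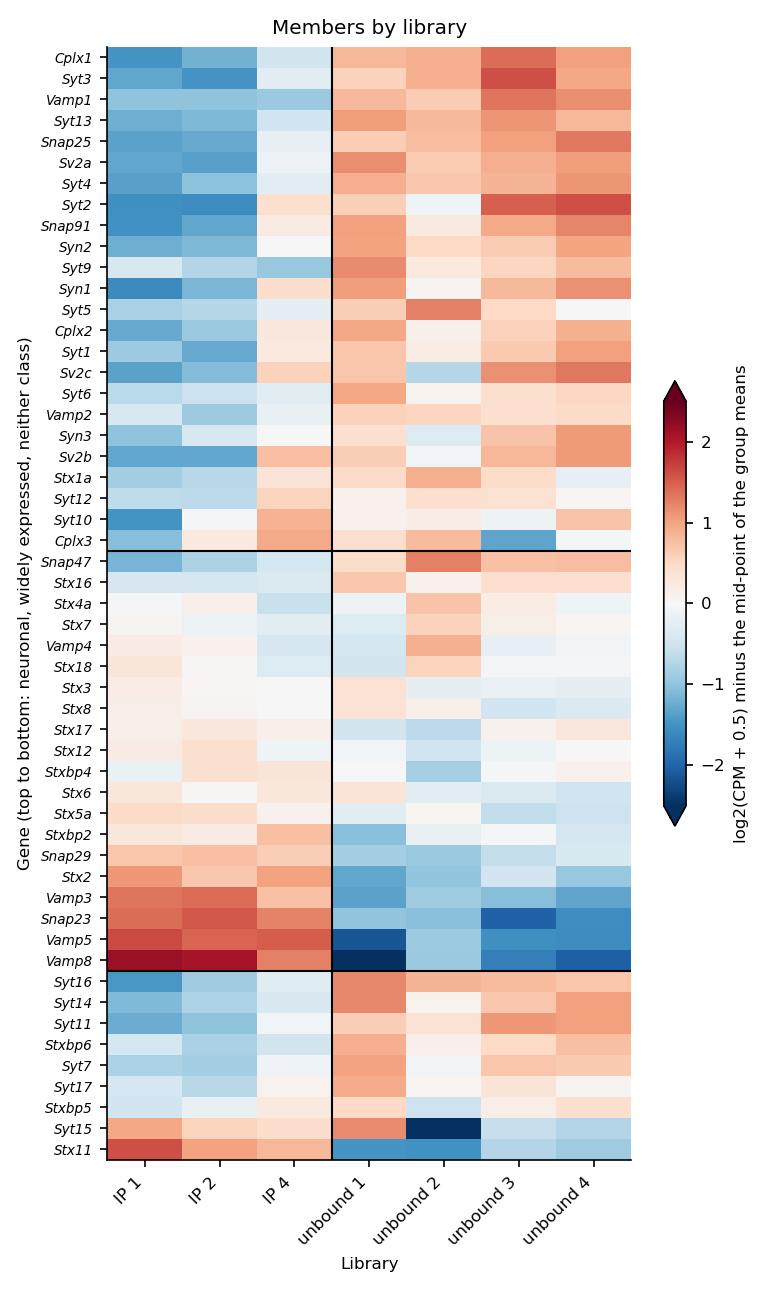
Values of 53 tested members with a mean of at least 1 CPM over the group means (rows) in each library (columns), as log2(CPM + 0.5) minus the mid-point of the IP and unbound means of that gene, with neuronal genes at the top, widely expressed genes in the middle and the others at the bottom. Neuronal rows are blue in IP 1 and IP 2, except Cplx3 in IP 2, and most are paler or red in IP 4, with Syt9 deeper blue there, while Snap23, Vamp3, Vamp5 and Vamp8 are red in all 3 IP libraries.

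IP 4 stood apart from the other IP libraries along the same line that divides the classes. For 25 of the 26 neuronal isoforms the highest IP value was in IP 4, as it was for 39.1% of all genes with a mean of at least 1 CPM. The ratio of IP 4 to the mean of IP 1 and 2 had a median of 2.25 over the neuronal isoforms, and it ran from 0.752 for Syt9 to 4.17 for Sv2b. Among the widely expressed isoforms 4 of 20 had their highest IP value in IP 4, and the median ratio was 0.916, with the lowest, 0.553, for Vamp8. The neuronal and endothelial marker sums and Stard8 moved with this, as given above. In IP 1, 2 and 4 the oligodendrocyte sum was 824, 933 and 1549 CPM and the astrocyte sum 1150, 1438 and 1674 CPM. The microglia and macrophage sum was 1072, 1067 and 1177 CPM, and the pericyte and smooth muscle sum 4697, 4942 and 3319 CPM. The part of these cells in the values of IP 4 was not tested. Among the unbound libraries, unbound 2 held the lowest value in 17 of 26 neuronal isoforms (65.4%, against 35.7% of all genes).

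The groups separated fully in part of the members. In 14 of the 26 neuronal isoforms every IP library lay below every unbound library, as in 22.7% of all genes. In 8 of the 20 widely expressed isoforms every IP library lay above every unbound library, as in 25.1% of all genes.

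In units that allow genes to be compared, CPM per kilobase of exon, the order of the members changed as well as their levels. Snap25 led in both groups, at 519 CPM per kilobase in IP and 1786 in unbound, and Vamp2 was next, at 262 in IP and 516 in unbound. Vamp3 ranked 3 in IP (130 CPM per kilobase) and 24 in unbound (25.9). Vamp8 ranked 10 in IP (46.0) and 44 in unbound (3.67), and Snap23 ranked 11 in IP (37.5) and 41 in unbound (5.50). Cplx1 kept a place near the top, at 119 CPM per kilobase in IP and 485 in unbound. Transcript lengths in use were not measured, so the ranks assume all annotated exon bases.

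Taken as a share of the summed CPM of all 59 members, neuronal isoforms made up 68.9%, 68.2% and 82.4% in IP 1, 2 and 4, against 88.1%, 88.1%, 89.9% and 90.9% in unbound 1 to 4. Widely expressed isoforms made up 25.9%, 26.4% and 12.5% in IP 1, 2 and 4, against 6.29%, 8.28%, 5.56% and 4.94% in unbound 1 to 4. Snap25 alone held 33.1% to 43.1% in IP and 45.8% to 56.1% in unbound. Neuronal isoforms thus held the larger share in every library, IP included. The part of untagged RNA carried over into IP in this share was not tested. Markers that were lower in IP still summed there to 967 to 1999 CPM for neurons and 824 to 1549 CPM for oligodendrocytes. As a sum of CPM, which is relative to library size, the neuronal level was 5172 to 10443 CPM in IP and 17735 to 25128 CPM in unbound. The widely expressed sum was 1591 to 2019 CPM in IP and 1310 to 1666 CPM in unbound, with overlap.

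Reads that matched more than 1 gene, which were counted for none, made up 1.55% ± 0.107 of reads in IP and 9.95% ± 1.89 in unbound (SD, n = 3 and 4). In GENCODE M21, 15 of the 58 annotated members share exon bases with another gene, and the largest shares were in Stx18 (19.8% with Gm42858 and 12.5% with Nsg1), Syt12 (17.2%), Syt4 (14.5%), Syn3 (14.1%) and Snap47 (11.6%). The part of these lost reads in the fold changes of those genes was not tested. In that annotation none of the 8 genes in the 4 pairs given here shares exon bases with another gene.

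Other genes of the release and recycling machinery were more often lower than higher in IP. Of 74 tested in 5 lists, 39 fell (52.7%, against 18.9% of all genes) and 12 rose (16.2%, against 20.5%). The other 23 did not pass, and the median log2 fold change was -0.95. The lists were not divided into neuronal and widely expressed genes. The total called was 51, and it was 31 without IP 1 and 29 without IP 2. Over all genes the number called was 6950, and it was 4814 and 4547 in the same fits. Of 22 docking, priming and active zone genes 14 fell (63.6%) and 2 rose (9.09%). Rims2, an active zone scaffold, had 51.3 to 102 CPM in IP and 202 to 326 CPM in unbound (-1.87 ± 0.32, adjusted p = 0.00116), and Rph3a, a Rab3 effector and the most abundant of the list per length, fell by 1.48 (adjusted p = 0.006). The priming factor Unc13b, which is also expressed outside neurons, rose by 2.22 ± 0.34 (adjusted p = 0.000556).

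Of 21 other vesicle proteins 14 fell (66.7%, against 18.9% of all genes) and 4 rose (19.0%, against 20.5%). Rab3a, the main Rab of synaptic vesicles, fell by 1.60 (adjusted p = 0.00121) and the transporter-like vesicle protein Svop fell by 1.86 (adjusted p = 0.000947). Rab3d, a Rab of secretory granules in exocrine and immune cells, had 39.8, 26.7 and 24.5 CPM in IP 1, 2 and 4, against 3.71, 1.79, 1.59 and 2.17 CPM in unbound 1 to 4, and rose by 3.71 ± 0.36 (adjusted p = 2.68e-05).

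Of 13 genes of vesicle retrieval 6 fell (46.2%, against 18.9% of all genes) and 4 rose (30.8%, against 20.5%). Dynamins cut vesicles from the membrane. The neuronal dynamin Dnm1 had 86.5, 110 and 368 CPM in IP 1, 2 and 4, against 476, 375, 599.7 and 597 CPM in unbound 1 to 4 (-1.44 ± 0.47, adjusted p = 0.0315), and lost its call without IP 1 (adjusted p = 0.11), IP 2 (0.134), unbound 1 (0.0504), unbound 3 (0.0669) or unbound 4 (0.067). The widely expressed Dnm2 had 134, 130 and 131 CPM in IP 1, 2 and 4, against 31.6, 33.1, 35.9 and 37.4 CPM in unbound 1 to 4 (1.93 ± 0.19, adjusted p = 3e-05). The endophilin Sh3gl3 fell by 2.52 (adjusted p = 0.000357).

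Of 15 further SNAREs and disassembly factors 3 fell (20%, near the 18.9% of all genes) and 2 rose (13.3%, against 20.5%). The brain SNAP Napb, an adaptor for the enzyme that takes used SNARE bundles apart, fell by 1.89 (adjusted p = 0.00748), and the Golgi SNARE Gosr2 rose by 0.88 (adjusted p = 0.00744). Vti1b, an endosomal SNARE and the most abundant of the list per length, did not pass (-0.83 ± 0.37, adjusted p = 0.0991). Of 3 synaptotagmin-like genes tested 2 fell, with Sytl2 at -1.18 ± 0.28 (adjusted p = 0.00772).

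**Figure D5:**
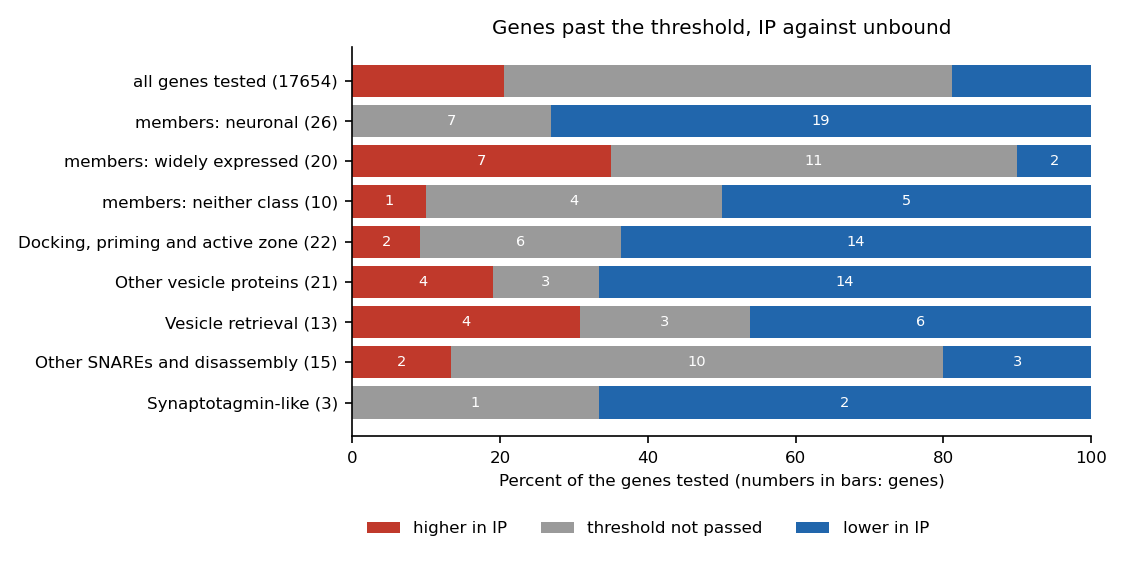
Share of tested genes that were higher in IP (red), did not pass (grey) or were lower in IP (blue), for all 17654 genes, the 3 classes of members and 5 lists of other release machinery genes; numbers in bars are genes. In the neuronal class 19 of 26 were lower and 0 higher, and in the widely expressed class 7 of 20 were higher and 2 lower.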

How the data were processed

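The authors deposited whole-number read counts per gene symbol for 7 libraries, without normalization. Per the submitters' processing notes, the aligner was STAR 2.0.0e, the counter HTSeq and the genome build mm10. Which annotation and strand setting they used is not given here. The 6 rows that name no gene, 48.1% to 59.8% of reads in IP and 42.0% to 53.9% in unbound, were left out. IP 3 was not analysed here.

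Counts were fitted in R 4.3.3 with edgeR 4.0.16 (filterByExpr, TMM scaling, robust quasi-likelihood test, two-sided, Benjamini-Hochberg at 0.05 over 17654 genes), and the procedure was tested on simulated data. CPM were computed here per effective library size. Count ratios had 0.5 added to each count and were tested by exact permutation over all 35 ways to divide the libraries. Coordinates, exon lengths and transcripts came from GENCODE M21 (GRCm38), with 58 of 59 members annotated. The level of 3 counts covers counting error only.

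The members, classes, lists, pairs and rules were chosen with earlier results of these data known. Genes given in every library were the pairs, the most abundant of each family per length, the 3 highest and 3 lowest called log2 fold changes, and called genes against their class. Of each other list, the gene of smallest p in each direction and the most abundant were named. Genes given in every library beyond this rule (Syt1, Syt2, Rab3d, Dnm1 and Dnm2) were chosen after their values were seen. The RE1 core, a site of the repressor REST, was searched for in the 300 bases around start sites (RefSeq, GRCm38.p6) and found in 0 of 60 promoters of 45 members (17 neuronal). It was in 0.0365% of all 32851 promoters, so nothing is read from this and no promoter is shown. The results of 2 members and of their 2 pairs are not reported here, while counts, sums and adjustments include them. The 18 alternatives were other scalings and filters, DESeq2 1.42.0, voom in limma 3.58.1, the index sequence, the replicate block, and leaving out each library.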

Additional observations from a re-analysis of the deposited data

Results flagged for a closer look

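In 1 gene a library lay far from the rest of its group. Stx3, a plasma membrane syntaxin, had 51.5 CPM in unbound 1, while the other 3 unbound libraries lay between 33.2 and 35.2 CPM. The gap took up 0.889 of the range of the 4 libraries, above Dixon's 95% critical value for 4 values. Groups of 4 values were examined 62 times, and chance alone flags about 1 in 20.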

How the results depend on the processing

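Of the 34 members that passed, 18 kept their call under every alternative that tested them and 0 changed sign under any. The main dependence was on IP 1 and IP 2: the number of members that fell was 14 to 30 when 1 library was left out, that of neuronal members 9 to 23, and that of other release machinery genes called 29 to 57. Over all genes the number called in these fits lay between 4547 (without IP 2) and 7682 (without unbound 2). The median log2 fold change of widely expressed members was 0.44 with scaling by library size only, 0.54 within index ACAGTG, and 0.23 to 0.42 when 1 library was left out. Scaling by library size only moved the median of all genes to 0.01. Same-numbered IP and unbound libraries deviated with correlations of -0.027, 0.042 and 0.158, and not every library correlated best with its own number, so the numbers were not taken as pairs. With the replicate block 7 members rose and 27 fell, 21 of them neuronal; Stx16 (adjusted p = 0.0582) and Stx5a (0.133) did not pass, and Sv2b (0.0256) and Sv2c (0.0422) did. Of the members that passed, 7 did not within index ACAGTG (Stx16, Stx5a, Stxbp6, Syt6, Syt7, Syt9 and Vamp2) and 5 did not within GTGAAA (Cplx2, Syn1, Syt1, Syt5 and Vamp2), and Syt2 did not without a filter on low counts (0.0528).

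Under these alternatives signs changed only in members that did not pass. Cplx3 was at -0.085 with voom, -0.47 with the replicate block and -1.03 within index ACAGTG. Cplx4 was at -0.83 with the replicate block, -0.062 with the index as a covariate and -0.32 within ACAGTG. Stx18 was at 0.11 with library size only, 0.033 with voom and 0.041 within ACAGTG, and Stx8 at -0.15 within ACAGTG. Within GTGAAA, Stx12 was at -0.038, Stx17 at -0.054, Stx1a at 0.19, Syt10 at 0.58 and Syt12 at 0.38. The cause was not tested. When 1 library was left out, the log2 fold changes ran from -0.50 to 0.55 for Cplx3, -2.02 to 0.56 for Cplx4, -0.19 to 0.20 for Stx18, -0.0023 to 0.28 for Stx8, -1.02 to 0.26 for Syt10 and -0.31 to 0.21 for Vamp4.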
